A study of Mus musculus with 6 samples.

Results

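The genes described here are p53 and a set of its target genes: Trp53 itself, which encodes p53, and Cdkn1a, Mdm2, Ccng1, Bbc3, Bax, Phlda3, Trp53inp1, Aen and Eda2r. They were chosen by name for their known place in the p53 pathway, and all 10 were found among the 22651 genes of each table. RNA was sequenced from the telencephalon (cortex, striatum and neighbouring forebrain) of mice at postnatal day 0, with 3 mice in each of 2 groups. The TSC1 group had the genotype TSC1 flox/flox;Emx1-cre/+, in which Cre made from the Emx1 locus cuts exons out of Tsc1 in cells of the dorsal cortex before birth. The WT group consisted of littermates with the genotype TSC1 flox/flox;Emx1 +/+, so both groups carried the floxed gene and only TSC1 carried Cre. The tissue was bulk telencephalon, which also holds cells outside the Emx1 lineage that keep Tsc1, and fewer cells of a type and less RNA per cell cannot be told apart in it. The comparison asks which of these transcripts differ between these groups. Loss of the brake that Tsc1 places on mTOR signaling goes together with the presence of Cre, and their effects cannot be told apart.

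p53 is a transcription factor that is kept low in unstressed cells because Mdm2, an E3 ubiquitin ligase, marks it for degradation. Under DNA damage, nucleolar stress or oncogenic signaling, p53 protein is stabilised and raises the transcription of genes that halt the cell cycle, promote apoptosis and feed back on p53, Mdm2 among them. Its activity is set mainly at the level of the protein, so that its own transcript need not move with its targets. In the developing forebrain the pathway is known for removing progenitors and young neurons with damaged or mis-segregated chromosomes.

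Levels between genes are given in TPM, a unit that scales each library to the same total and corrects for gene length. In WT, Bax was the most abundant of the 10 transcripts at 169 ± 9.11 TPM (SD, n = 3 mice), followed by Aen at 60.9 ± 3.56 TPM, Mdm2 at 54.1 ± 2.19 TPM and Trp53 at 50.6 ± 8.11 TPM. Ccng1 at 40.0 ± 6.26 TPM and Trp53inp1 at 38.7 ± 1.46 TPM came next. Bbc3 and Cdkn1a were level at 28.2 ± 1.90 and 28.2 ± 1.73 TPM, above Phlda3 at 13.3 ± 1.27 TPM, while Eda2r was lowest at 1.93 ± 0.251 TPM. In that order, the WT values of Mdm2 and Trp53, of Trp53 and Ccng1, of Ccng1 and Trp53inp1, and of Bbc3 and Cdkn1a overlapped, and the other neighbours did not. In TSC1, Bbc3 and Cdkn1a no longer overlapped, at 40.0 ± 1.99 TPM and 23.5 ± 4.71 TPM, and Ccng1 and Trp53inp1 came directly after Aen in mean level, where both overlapped with Trp53.

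p53 binds DNA as a tetramer, each pair of subunits on a half-site of 10 bases, and a full response element is a pair of half-sites with a short spacer. RefSeq promoter windows (GRCm38.p6, the assembly of mm10), which run from 250 bases before to 50 bases after a transcription start, were found for 9 of the 10 genes, in 13 windows. The p53 half-site consensus, which reads the same on both strands, matched in 7 of the 13 windows (53.8%). The share was 8.36% over all 32851 windows and 6.86% over the windows of tested genes. Since these genes were chosen as p53 and its known targets, the difference in share tests nothing about them. Both Aen windows cover the same half-site, so it is counted in each. The windows with a match belonged to 6 genes, whose matching stretches are shown because they are the sequence feature that these promoters share, with the half-sites in capitals:
Trp53 (chr11:69580264-69580313, + strand): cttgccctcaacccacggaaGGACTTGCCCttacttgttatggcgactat
Cdkn1a (chr17:29090886-29090957, + strand): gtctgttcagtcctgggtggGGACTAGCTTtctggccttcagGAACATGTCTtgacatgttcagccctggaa
Mdm2 (chr10:117710915-117710964, - strand): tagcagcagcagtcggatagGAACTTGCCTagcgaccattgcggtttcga
Ccng1 (chr11:40755442-40755491, - strand): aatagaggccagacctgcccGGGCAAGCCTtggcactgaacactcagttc
Bax (chr7:45467070-45467119, - strand): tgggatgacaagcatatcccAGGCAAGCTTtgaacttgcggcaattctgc
Aen (chr7:78895917-78895966, + strand): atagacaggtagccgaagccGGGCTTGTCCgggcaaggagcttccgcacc

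The Cdkn1a window held 2 half-sites 12 bases apart, which meets the definition of a full site used here (a pair of half-sites with a spacer of 0 to 13 bases). A full site was present in 24 of all 32851 windows (0.0731%). The Cdkn1a site lies at the more upstream of the 2 Cdkn1a start sites, between 73 and 42 bases before it, and the window at the other start site held no match. Directly after GAACATGTCT, without a spacer, the stretch tgacatgttc differs from the half-site consensus only in its opening t, so it was not counted. Whether p53 binds the counted pair or GAACATGTCT together with tgacatgttc was not measured. The half-sites of Mdm2, Ccng1 and Bax began 186, 185 and 201 bases before the start, that of Trp53 began 75 bases before it, and that of Aen lay 11 bases after one of its start sites and 121 bases before the other. The windows of Bbc3, Phlda3 and Eda2r held no match, and Trp53inp1 was the gene without a window, so its promoter was not examined. The Phlda3 window ends in gaacatgt, which fits the start of a half-site, and the bases after it were not examined. Sites outside the windows were not looked for in any gene. A match describes these letters only, since no binding was measured.

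The total of the expected counts, which are read numbers per gene as estimated by RSEM, ranged from 14119365 to 17772865 per mouse, and 3 counts, the least taken as detection, corresponded to 0.169 to 0.212 CPM (counts scaled to library size). Tsc1, the targeted gene, had 50.2, 32.0 and 28.4 TPM in WT and 27.1, 21.7 and 22.4 TPM in TSC1. Its groups did not overlap, and its log2 fold change was -0.66 (edgeR adjusted p = 0.1, standard error 0.175). Without WT replicate 1, the highest mouse, it was -0.397. Cells that keep Tsc1 and exons outside the deleted part still contribute to this count. The telencephalon markers Emx1, Lhx2, Tbr1, Eomes, Neurod6, Bcl11b and Dlx2 were all detected in every mouse. On the first principal component of log2 CPM (47.7% of the variance), TSC1 replicate 3 at -3.95 lay outside the other TSC1 mice, at 26.5 and 30.3, and beside WT replicate 1 at -7.43. Replicate 3 of each group was also the only one of its group with Ddx3y, a Y-linked gene, at 1570 counts in WT and 1665 in TSC1, and the others had 0. Xist, made from the inactive X chromosome, had 46 counts in WT replicate 3 and 69 in TSC1 replicate 3. The other mice had 40431 to 57386. By these transcripts replicate 3 of each group was male and the others were female, while the labels give no sex. The study describes the 3 mice of each group as independent, and which mice shared a litter is not given.

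**Figure D1:**
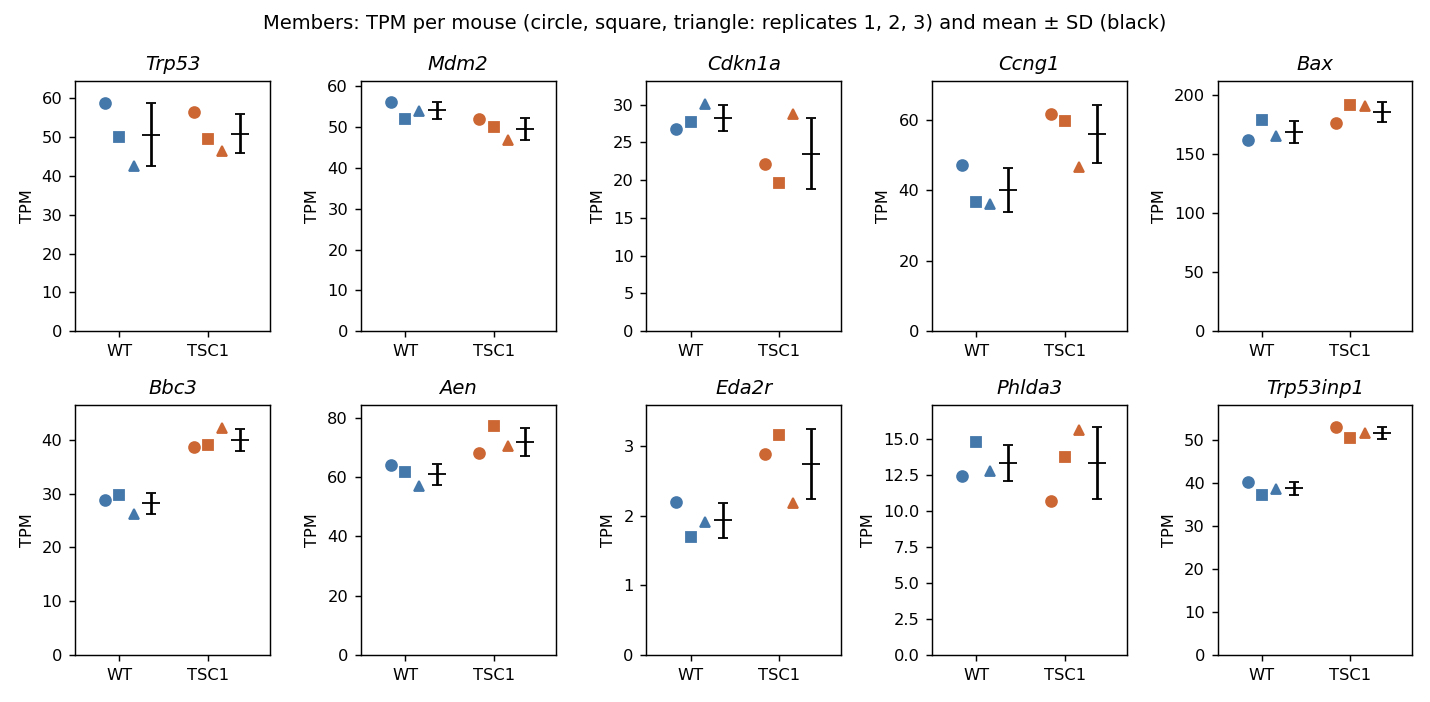
Level of each of the 10 genes in every mouse, in TPM on linear axes that start at 0. Circles, squares and triangles are replicates 1, 2 and 3 of WT (blue) and TSC1 (orange), and black bars are the mean ± SD of 3 mice. The values of Trp53inp1, Bbc3 and Aen did not overlap between groups, while those of Trp53 and Phlda3 overlapped.

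The p53 transcript differed between the groups by less than the spread between mice. Trp53 (chromosome 11, 69580359 to 69591873, + strand, GENCODE positions on GRCm38) had 58.9, 50.1 and 42.7 TPM in WT replicates 1, 2 and 3, and 56.4, 49.7 and 46.5 TPM in TSC1 replicates 1, 2 and 3. The TSC1 range lay inside the WT range, with replicate 1 highest and replicate 3 lowest in each group. The edgeR log2 fold change of TSC1 over WT was -0.02 (standard error 0.114, adjusted p = 0.948), and its 95% interval ran from -0.28 to 0.24, that is from 0.825-fold to 1.18-fold. Its sign was not stable, and without WT replicate 1 the value was 0.075.

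Mdm2, the ligase that degrades p53 and is itself a p53 target, had slightly lower values in TSC1. It is on chromosome 10 (117688875 to 117710758, - strand) and had 56.3, 51.9 and 54.0 TPM in WT and 52.1, 50 and 46.8 TPM in TSC1. Only TSC1 replicate 1 reached into the WT range in TPM, and in CPM all 3 TSC1 mice lay below all 3 WT mice. In edgeR it differed by -0.15 on the log2 scale (edgeR adjusted p = 0.317, standard error 0.0734), with a 95% interval from -0.32 to 0.01, so a fall beyond 0.802-fold lay outside it. Mdm4, the relative of Mdm2 that holds p53 inactive and pairs with Mdm2, went the other way, at 54.4, 53.9 and 57.1 TPM in WT and 67.7, 59.6 and 61.3 TPM in TSC1 (log2 fold change 0.16, standard error 0.0764, edgeR adjusted p = 0.310). Neither gene passed the test alone. The Mdm2 to Mdm4 ratio of TPM was 1.03, 0.964 and 0.947 in WT and 0.770, 0.839 and 0.764 in TSC1. The groups did not overlap in this ratio, which differed by -0.31 on the log2 scale (exact permutation test, two-sided, p = 0.1, the smallest that 3 mice against 3 allow). This was 1 of 2 ratios compared, and its adjusted p over both was 0.2.

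Of the 2 cell cycle members, Ccng1 had higher and Cdkn1a had lower values in TSC1, and neither passed the test. Ccng1 (chromosome 11, 40748552 to 40755311, - strand) encodes cyclin G1, which brings the phosphatase PP2A to Mdm2. Its level was 47.2, 36.7 and 36.1 TPM in WT and 61.6, 59.8 and 46.6 TPM in TSC1. TSC1 replicate 3 lay just below WT replicate 1 in TPM, and in CPM the groups did not overlap. The log2 fold change of Ccng1 was 0.46 (standard error 0.122, 95% interval 0.18 to 0.73, edgeR adjusted p = 0.0988). Leaving out TSC1 replicate 3 gave 0.567 with an edgeR adjusted p of 0.0188, and leaving out WT replicate 1 gave 0.569 with an edgeR adjusted p of 0.0445, while leaving out any other single mouse gave 0.402 to 0.410 with an edgeR adjusted p of 0.282 to 0.326.

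Cdkn1a (chromosome 17, 29090976 to 29100727, + strand) encodes p21, the inhibitor of cyclin-dependent kinases through which p53 arrests the cell cycle, and its promoter stretch is the one with the full site. It had 26.7, 27.7 and 30.1 TPM in WT and 22.2, 19.6 and 28.7 TPM in TSC1. TSC1 replicates 1 and 2 lay below every WT mouse and TSC1 replicate 3 lay within the WT range. Its log2 fold change was -0.29 (standard error 0.155, 95% interval -0.64 to 0.06, edgeR adjusted p = 0.365). The upper end of that interval corresponds to 1.04-fold. Without TSC1 replicate 3 the value was -0.474, with an edgeR adjusted p of 0.0679, and without TSC1 replicate 2 it was -0.179, with an edgeR adjusted p of 0.728. It was below 0 in all 16 alternatives run. AC167363.2, an annotated gene on the opposite strand, shares 273 bases (7.68%) of the exons of Cdkn1a. Whether any Cdkn1a reads belong to it was not tested.

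Bbc3, an apoptosis gene, had higher values in every TSC1 mouse than in any WT mouse and fell just short of the threshold. Bbc3 (chromosome 7, 16308393 to 16318205, + strand) encodes PUMA, a BH3-only protein that binds and blocks the survival proteins of the Bcl2 family. It had 28.8, 29.8 and 26.1 TPM in WT and 38.7, 39.0 and 42.3 TPM in TSC1. The lowest TSC1 mouse lay above the highest WT mouse, and TSC1 replicate 3 was the highest of all. Bbc3 differed by 0.47 on the log2 scale (standard error 0.0974, 95% interval 0.25 to 0.69), or 1.39-fold, with an edgeR adjusted p of 0.0517, just short of the threshold of 0.05. It passed with DESeq2 (adjusted p = 0.0114), and with limma on log2(TPM + 1) the adjusted p was 0.0361. It did not pass under upper-quartile normalization (edgeR adjusted p = 0.0674) or with any single mouse left out (0.0565 to 0.195).

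Bax, the pore-forming protein that BH3-only proteins such as PUMA set free, had slightly higher values in TSC1 and did not pass the test. Bax (chromosome 7, 45461697 to 45466898, - strand) had 163, 179.6 and 165 TPM in WT and 176, 192 and 191 TPM in TSC1. TSC1 replicate 1 lay within the WT range, and TSC1 replicates 2 and 3 lay above it. For Bax the log2 fold change was 0.10 (standard error 0.0868, 95% interval -0.09 to 0.30, edgeR adjusted p = 0.580). Bcl2, the survival protein that holds Bax in check, had 12.5, 9.94 and 8.62 TPM in WT and 10.1, 9.70 and 8.13 TPM in TSC1 (log2 fold change -0.18, edgeR adjusted p = 0.523). The Bax to Bcl2 ratio of TPM was 13, 18.1 and 19.2 in WT and 17.5, 19.8 and 23.5 in TSC1. The groups overlapped in this ratio, with a difference of 0.28 on the log2 scale (exact permutation test, two-sided, p = 0.3, and 0.3 after adjustment over both ratios). This difference was 0.11 without WT replicate 1 and 0.17 without TSC1 replicate 3. Gm45808, an annotated gene on the same strand, shares 192 bases (12.2%) of the exons of Bax, so some of the Bax reads could belong to it.

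Aen and Eda2r both had higher values in TSC1 and did not pass. Aen (chromosome 7, 78895854 to 78911209, + strand), a nuclease that p53 induces during apoptosis, had 64.0, 61.6 and 57.0 TPM in WT and 68.0, 77.2 and 70.4 TPM in TSC1, without overlap. Its log2 fold change was 0.21 (standard error 0.0820, 95% interval 0.03 to 0.40, edgeR adjusted p = 0.214). Eda2r (chromosome X, 97333840 to 97377216, - strand) encodes a receptor of the tumour necrosis factor receptor family that binds ectodysplasin A2. It was counted only 54, 44 and 45 times in WT and 67, 72 and 55 times in TSC1, at 2.19, 1.69 and 1.90 TPM against 2.88, 3.16 and 2.18 TPM. TSC1 replicate 3 lay just under WT replicate 1 in TPM, and above it in CPM. The log2 fold change of 0.53 was the largest of the 10 members and the least precise (standard error 0.216, 95% interval 0.04 to 1.01, edgeR adjusted p = 0.239).

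Phlda3 and Trp53inp1 act on the Akt pathway and on autophagy and arrest, respectively. Phlda3 (chromosome 1, 135766119 to 135769136, + strand) keeps Akt from the membrane. It had 12.4, 14.7 and 12.7 TPM in WT and 10.7, 13.7 and 15.6 TPM in TSC1, and the WT range lay wholly inside that of TSC1. Its log2 fold change was -0.03 (standard error 0.183, 95% interval -0.44 to 0.38, edgeR adjusted p = 0.956), and its sign turned to 0.123 without TSC1 replicate 1 and to 0.059 without WT replicate 2.

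Trp53inp1 was the only member that passed the main test, and it rose in TSC1. Trp53inp1 (chromosome 4, 11156431 to 11174379, + strand) encodes a stress-induced nuclear protein that takes part in p53-driven arrest and apoptosis and also in autophagy. It had 40.2, 37.3 and 38.6 TPM in WT, from 1249, 1315 and 1101 counts, and 53.1, 50.3 and 51.6 TPM in TSC1, from 1530, 1381 and 1616 counts. All 3 TSC1 mice lay above all 3 WT mice, TSC1 replicate 3 among them, and the mice within a group differed by less than in any other member (coefficient of variation 3.76% in WT and 2.65% in TSC1). The log2 fold change was 0.39 (standard error 0.0650, 95% interval 0.24 to 0.54), or 1.31-fold, with an edgeR adjusted p of 0.0297. The call was lost without WT replicate 2, WT replicate 3, TSC1 replicate 1 or TSC1 replicate 2, with log2 fold changes of 0.367 to 0.410 and an edgeR adjusted p between 0.111 and 0.157. It was kept without WT replicate 1, without TSC1 replicate 3 and without replicate 3 of both groups, where the edgeR adjusted p was 0.0487.

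Over the set, 1 of the 10 members passed at an edgeR adjusted p below 0.05, and 1.52% of the 13969 genes tested did so (0.859% as rises). DESeq2 called 3 members, Trp53inp1, Bbc3 and Ccng1, and 4.86% of the genes it adjusted. At an unadjusted p below 0.05 there were 5 of 10 members (Trp53inp1, Bbc3, Ccng1, Aen and Eda2r, each higher in TSC1), against 18% of all genes. In CPM the groups did not overlap in 6 of 10 members, those 5 as higher and Mdm2 as lower, against 22.7% of all genes tested in either direction. The median log2 fold change of the 10 members was 0.16, beside -0.00267 over all genes tested. All 10 passed the filter on low counts. Since the members were picked by name with earlier results of these mice known, these counts describe the set and test nothing about it.

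**Figure D2:**
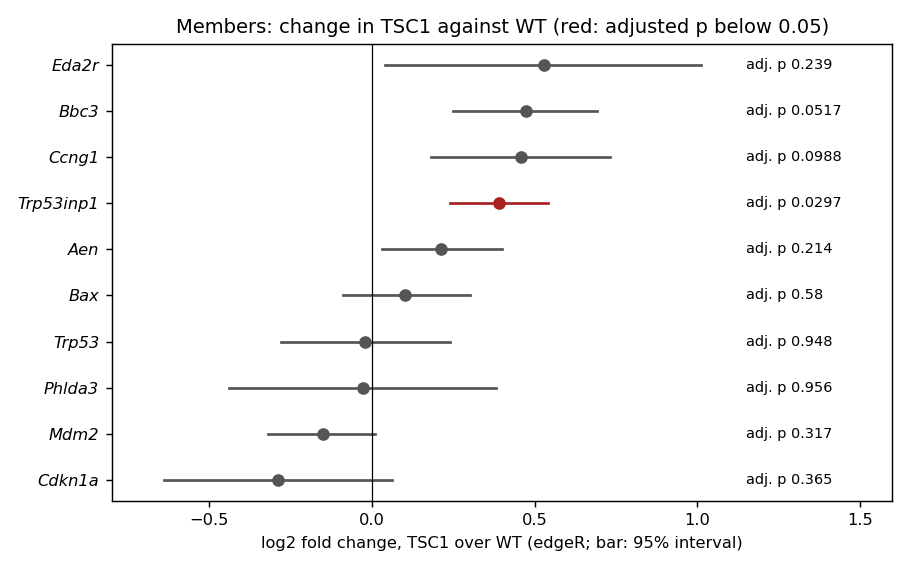
Log2 fold change of each member in TSC1 over WT from edgeR, with its 95% interval as a bar and its adjusted p at the right, over 3 mice a group. Eda2r, Bbc3, Ccng1, Trp53inp1 and Aen had intervals above 0, only Trp53inp1 (red) had an adjusted p below 0.05, and Cdkn1a and Mdm2 lay at the lower end at -0.29 and -0.15.

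The wider p53 programme was followed in a list of other targets, of which 49 had a row in the tables and 46 were tested. Of the 46, 3 passed (6.52%, beside 1.52% of all genes tested), all as rises, 8 had an unadjusted p below 0.05 (17.4%, beside 18% of all genes tested), all of them higher in TSC1, and the median log2 fold change was 0.01. The largest rise was in Sesn2, a sestrin that senses leucine and restrains mTORC1, which p53 and also the stress factor ATF4 are known to induce. Sesn2 had 5.09, 3.84 and 3.61 TPM in WT and 33.5, 20.5 and 21.7 TPM in TSC1 (log2 fold change 2.56, standard error 0.211, edgeR adjusted p = 0.00112). Trp53inp2 had 129, 114 and 104 TPM in WT and 182, 197 and 156 TPM in TSC1 (log2 fold change 0.60, standard error 0.0941, edgeR adjusted p = 0.0249). Despite its place in the list, Trp53inp2 is the paralogue of Trp53inp1 known mainly for autophagy and as a partner of nuclear receptors. Cyfip2, a subunit of the complex that controls actin branching, rose by 0.30 on the log2 scale (edgeR adjusted p = 0.0479, standard error 0.0606). Without WT replicate 2, WT replicate 3, TSC1 replicate 1 or TSC1 replicate 2, Sesn2 alone of these 3 still passed, while the edgeR adjusted p was 0.0982 to 0.145 for Trp53inp2 and 0.160 to 0.234 for Cyfip2.

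None of the other targets passed with edgeR. Sesn1, another sestrin, at 57.6, 48.6 and 50.1 TPM in WT and 76.4, 62.9 and 70.5 TPM in TSC1, had a log2 fold change of 0.39 (edgeR adjusted p = 0.0710, standard error 0.0920). Apaf1, the scaffold of the apoptosome, had 0.41 (standard error 0.0918, edgeR adjusted p = 0.0657), and its groups did not overlap either. Apaf1 and Sesn1 were next in order of p, and they and the genes that follow were singled out after their values were seen. Zmat3 (log2 fold change 0.41, edgeR adjusted p = 0.154), Rrm2b (0.45, adjusted p = 0.247) and Gls2 (0.67, adjusted p = 0.201) were the remaining targets with an unadjusted p below 0.05. Of these only Gls2 had groups that did not overlap. Gls2 was counted only 17, 16 and 16 times in WT and 24, 21 and 29 times in TSC1. Among further well-known p53 targets, Btg2 (log2 fold change 0.17, edgeR adjusted p = 0.619), Gadd45a (-0.06, adjusted p = 0.907), Pmaip1, which encodes the BH3-only protein Noxa (0.12, adjusted p = 0.802), Plk2 (0.00, adjusted p = 0.997), Ddb2 (0.10, adjusted p = 0.722) and Xpc (0.03, adjusted p = 0.911) were far from the threshold in edgeR. Gdf15, a secreted stress factor, had between 0 and 4 counts per mouse and was not tested.

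The p53 family and the regulators of p53 were tested in 20 genes. With edgeR none passed, and 5 had an unadjusted p below 0.05 (25%, beside 18% of all genes tested). DESeq2 called 2, beside 4.86% of all genes, and the median log2 fold change was 0.00389. The lowest p belonged to Rpl11, a ribosomal protein that can bind and block Mdm2, with 96.2, 101 and 91.3 TPM in WT and 73.8, 55.3 and 68.9 TPM in TSC1 (log2 fold change -0.59, standard error 0.127, edgeR adjusted p = 0.0577). Ribosomal protein genes have many near-identical copies in the genome, so the level of Rpl11 is uncertain. Prkdc, the DNA-dependent protein kinase, was second at 0.43 (standard error 0.107, edgeR adjusted p = 0.0808). Chek2, a kinase that phosphorylates p53 after DNA damage, had lower values in every TSC1 mouse than in any WT mouse (log2 fold change -0.62, edgeR adjusted p = 0.196). Crebbp, an acetyltransferase and p53 coactivator, had groups that overlapped (log2 fold change 0.26, edgeR adjusted p = 0.204), as did Rpl5 (-0.25, adjusted p = 0.271), and these were the other regulators with an unadjusted p below 0.05. Atm, Atr, Chek1, Usp7 and Hipk2 each had an edgeR adjusted p of at least 0.388. These genes from Chek2 on were named after their values were seen.

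Of 15 genes of the mitochondrial apoptosis pathway that were tested, 1 passed (6.67%, beside 1.52% of all genes tested). It was also the only one with an unadjusted p below 0.05, beside 18% of all genes. This was Hrk, a BH3-only gene of neurons that is known to respond to loss of trophic support. Hrk had 26.6, 26.7 and 24.5 TPM in WT and 37.4, 35.1 and 48.3 TPM in TSC1, so it was highest in TSC1 replicate 3, as Bbc3 was. Its log2 fold change was 0.61 (standard error 0.123, edgeR adjusted p = 0.0479), and the call was lost under upper-quartile normalization (adjusted p = 0.0642) and when any mouse other than TSC1 replicate 3 was left out.

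p21 is known to lower cell cycle genes through the DREAM repressor complex, and 18 of these genes were tested. None passed with edgeR, DESeq2 called 1 (beside 4.86% of all genes), and 3 had an unadjusted p below 0.05 (16.7%, beside 18% of all genes tested), all lower in TSC1. Of the 18, 17 had a log2 fold change below 0, with a median of -0.17. Over all 13969 genes tested, 6890 had one above 0, and the median was -0.00267. Cdkn1a, which encodes p21, itself had a log2 fold change of -0.29 (edgeR adjusted p = 0.365). A part of p21 in the values of the 18 genes was not tested. Top2a, the topoisomerase of dividing cells, had 46.9, 38.9 and 39.9 TPM in WT and 34.1, 31.8 and 35.5 TPM in TSC1 (log2 fold change -0.33, standard error 0.0846, edgeR adjusted p = 0.0874). Cdk1, the mitotic kinase, had 15.1, 13.8 and 12.8 TPM in WT and 10.1, 10.1 and 10.9 TPM in TSC1 (log2 fold change -0.45, standard error 0.115, edgeR adjusted p = 0.0905). Both had lower values in all 3 TSC1 mice than in any WT mouse.

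**Figure D3:**
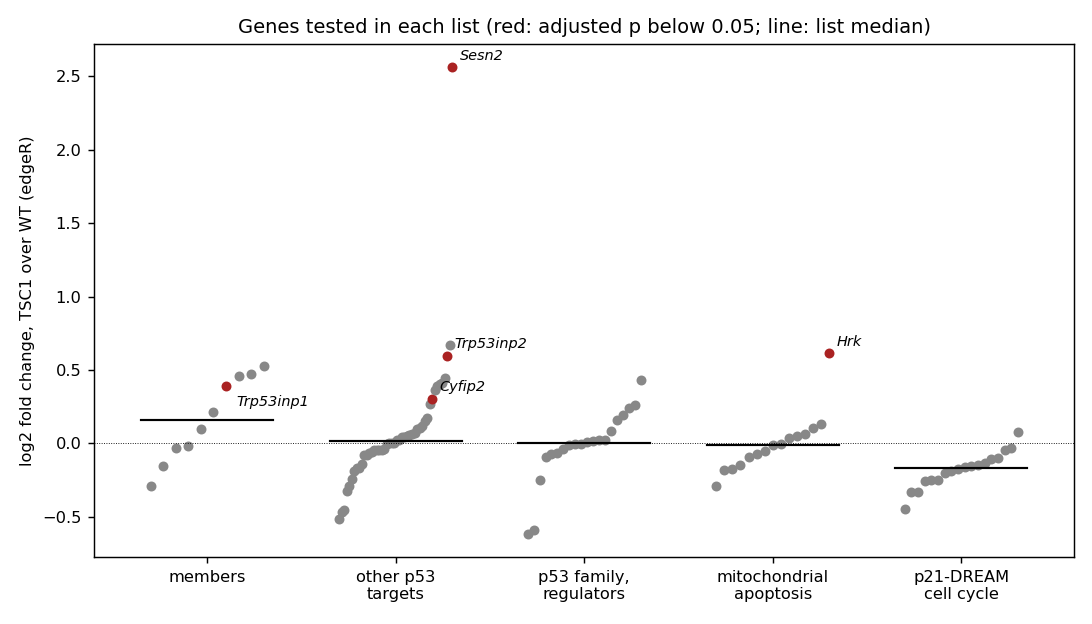
Log2 fold change in TSC1 over WT (edgeR) of each tested gene in the 10 members and in 4 wider lists, sorted within a list, with the list median as a line. Only Trp53inp1, Sesn2, Trp53inp2, Cyfip2 and Hrk (red) had an adjusted p below 0.05, and 17 of the 18 cell cycle genes at the right lay below 0. Of all 13969 genes tested, 6890 lay above 0.

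**Figure D4:**
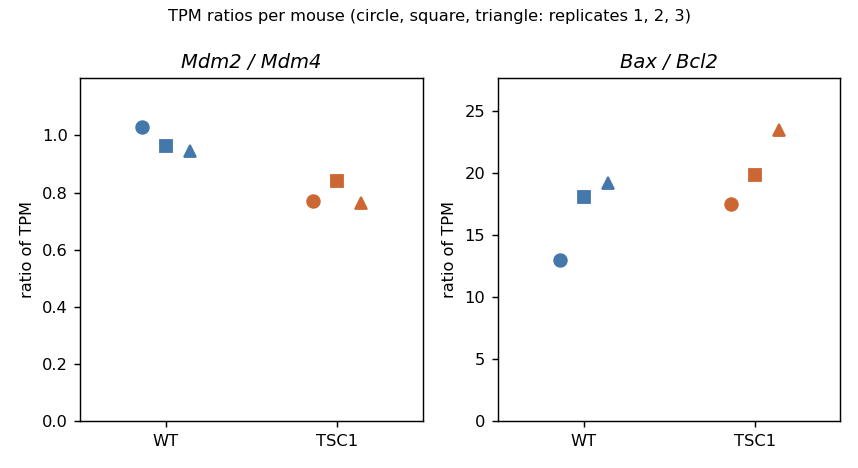
Ratio of the TPM of Mdm2 to Mdm4 and of Bax to Bcl2 in each mouse, on linear axes from 0. The Mdm2 to Mdm4 ratios were 0.947 to 1.03 in WT and 0.764 to 0.839 in TSC1, without overlap, while the Bax to Bcl2 ratios of the groups overlapped.

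The members did not place the mice in the same order. TSC1 replicate 3 was the TSC1 mouse nearest to WT for Cdkn1a, Ccng1 and Eda2r, at 0.02, 0.23 and 0.21 log2 CPM from the WT mean against -0.40, 0.57 and 0.55 in TSC1 replicate 1. For Bbc3, Trp53inp1 and Mdm2 the same mouse lay as far from WT as the others or farther, at 0.57, 0.41 and -0.21. Marker lists of other cell types also differed between the mice. The summed TPM of 7 choroid plexus markers was 1180 to 2480 in WT and 34.9, 112 and 872 in TSC1 replicates 1, 2 and 3, with all 7 lower in TSC1 and none at 0. The sum of 9 striatal neuron markers was 320 to 445 in WT and 97.7, 111 and 248 in TSC1. The 8 endothelial markers summed to 207 to 273 in WT and 179 to 210 in TSC1, the 8 microglia markers to 152 to 207 and 150 to 229, and the 8 red blood cell genes, of which Hbb-b2 was at 0, to 1700 to 5570 and 1290 to 1780. TSC1 replicate 3 was therefore nearest to WT for the choroid plexus and striatal lists too, as it was for Cdkn1a, Ccng1 and Eda2r. The part of tissue composition or of sex in the members' values was not tested. The summed TPM of the 10 members was 465 to 499 in WT and 541 to 555 in TSC1.

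**Figure D5:**
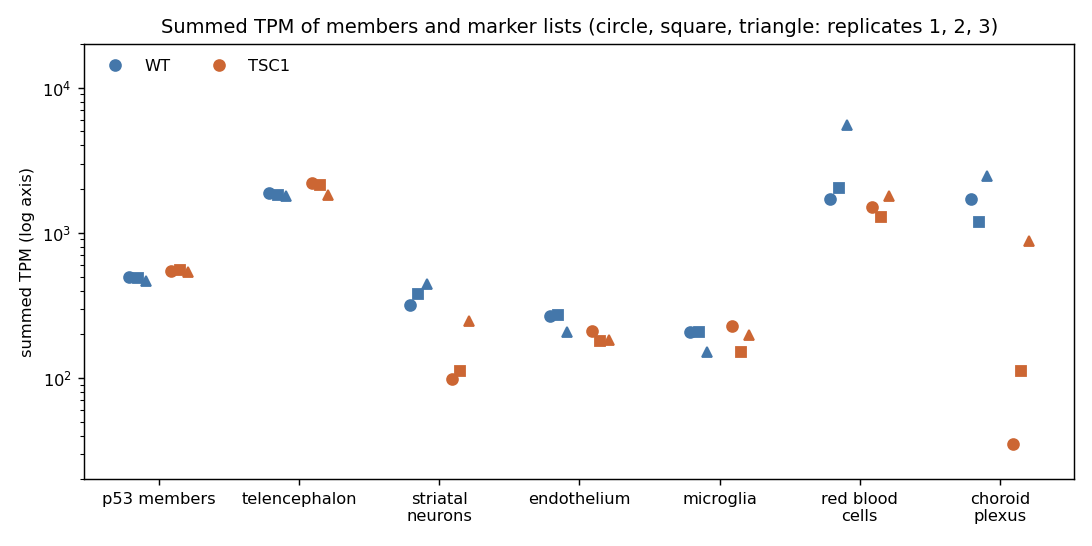
Summed TPM per mouse (log axis) of the 10 members and of marker lists for the telencephalon and for other cell types. Circles, squares and triangles are replicates 1, 2 and 3. Choroid plexus and striatal markers were lower in every TSC1 mouse than in any WT mouse and highest among TSC1 in replicate 3. The members' sums were 465 to 499 in WT and 541 to 555 in TSC1, without overlap.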

How the data were processed

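Gene tables of 3 WT and 3 TSC1 telencephalons were used, with groups and replicate numbers from the sample titles. The authors checked reads with FastQC, trimmed them, used Mapsplice2 for alignment (mm10) and RSEM 1.2.12 for gene levels. The deposited expected counts are not normalized, and the deposited TPM is scaled by RSEM on effective length. FPKM was not used. Expected counts were rounded. The main test was the quasi-likelihood test of edgeR 4.0.16 (R 4.3.3) with TMM, filterByExpr and Benjamini-Hochberg adjustment over 13969 genes at a threshold of 0.05. It stands in for the permutation-based method of the study, which was not run. Log2 CPM had a prior count of 2. Alternatives were DESeq2 1.42.0, limma 3.58.1 on log2(TPM + 1) or log2(TPM + 0.1), other normalizations and filters, length offsets, a replicate block and left-out mice. Ratios were compared with exact permutation tests. The code was tested on simulated data. Mice of a group differed by more than sampling noise (chi-square per degree of freedom of 5.68 to 17.4), so all 6 were kept. Named genes are the members, Tsc1, Mdm4, Bcl2, Sesn2, every called gene of a wider list and, in lists with fewer than 2 calls, those with the lowest p until 2 were named, except that some genes are not reported here. The members and lists were chosen with earlier results of these data known. Listed genes without a row were not analysed here. Positions are from GENCODE (GRCm38) and promoter windows from RefSeq.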

Additional observations from a re-analysis of the deposited data

How the results depend on the processing

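The count of members called was 1 in the main fit and kept that value under RLE and upper-quartile normalization, a minimum of 10 counts in every sample and length offsets. It was 3 with DESeq2, 2 with limma on log2(TPM + 1) or log2(TPM + 0.1), 2 without a filter and 3 with the replicate block, and leaving out mice gave 0 to 2. Without WT replicate 2, WT replicate 3, TSC1 replicate 1 or TSC1 replicate 2 no member passed, and only 29 to 37 of all genes did, against 212 in the main fit. The other targets called numbered 3, with 5 under DESeq2 and 5 with the replicate block, 2 under RLE or upper-quartile normalization, and 1 to 5 with mice left out. The regulators called numbered 0, with 2 under DESeq2 and 1 under limma at either offset or without a filter, and 0 to 1 with mice left out. Hrk, the 1 apoptosis gene called, was lost under upper-quartile normalization (0) and in most fits with mice left out (0 to 1). The DREAM genes called numbered 0, with 1 under DESeq2 and 0 to 1 with mice left out. The members' median log2 fold change ranged from 0.112 to 0.211 over 16 alternatives. Signs were stable in all 16 for 8 members. Trp53 turned to 0.016 under limma at either offset and ranged from -0.108 to 0.075 with mice left out, above 0 without WT replicate 1 or TSC1 replicate 3. Phlda3 ranged from -0.186 to 0.123 with mice left out, above 0 without WT replicate 2 or TSC1 replicate 1. Cyfip2 no longer passed under RLE (adjusted p = 0.05) or upper-quartile normalization (0.0601). Causes were not tested. Same-numbered mice were not shown to be paired: deviations from the group means correlated at 0.267, -0.133 and 0.318 for numbers 1, 2 and 3, WT replicate 2 correlated best with TSC1 replicate 3 (0.117), and the block moved the calls among all genes from 212 to 551. At this depth Gdf15, Cdkn2a and Bik were too low to compare.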

Other observations

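The promoter windows of the members varied widely in base composition. Their GC content ran from 50.3% in Eda2r to 78.0% in a Bbc3 window, beside a median of 60.7% over the windows of tested genes. The Cdkn1a window with the full p53 site had an observed over expected CpG ratio of 0.0892, and the window at its other start site had 0.786, beside a median of 0.736 over tested genes. The gene tables do not separate the transcripts of these start sites.

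Several partners of p53 were at or near the floor of 3 counts. Trp63, the p53 relative of epithelia, had 2 to 8 counts per mouse, and Cdkn2a, which encodes the Mdm2 inhibitor Arf, had 0 to 3. Trp73, the p53 relative known in Cajal-Retzius cells, was measured well enough to test and differed by 0.09 on the log2 scale (edgeR adjusted p = 0.797, standard error 0.150).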
